A study of Pan troglodytes with 8 samples.

Results

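Basal radial glia were compared with apical radial glia by the accessibility of their chromatin, with the ratio taken separately within the libraries numbered 1 and within those numbered 2. The members are the regions of the deposited count table that carry a chimpanzee identifier, 211355 of 218080 rows, read in the 4 libraries bRG 1, bRG 2, aRG 1 and aRG 2 of 8 in all. The other 6725 rows had a total count of 0, and 7 repeated identifiers were removed, which left 211348 regions with a median width of 858 bp. The assay was bulk ATAC-seq, in which a transposase cuts accessible DNA and adds sequencing adapters there, so that a high count marks open chromatin.

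All cells came from cerebral organoids, 3-dimensional cultures that form cortex-like tissue. They were grown from chimpanzee induced pluripotent stem cells of the line SandraA and taken at week 8 of culture, give or take 3 days. Fluorescence-activated sorting separated BCL11B+ neurons (N), intermediate progenitors (bIP) and the radial glia of both kinds, called aRG when apical and bRG when basal, with 2 libraries each. No group differs from another in line, genotype, medium or age, and no agent distinguishes them. The series rests on a single line, the labels name no sort marker besides BCL11B for the neurons, and they do not say whether the libraries of a population came from separate cultures, so that p-values measure only the spread between these libraries.

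Radial glia are the neural stem cells of the developing cortex. Apical radial glia line the ventricle, keep an apical process with adherens junctions there, and send a basal process to the outer surface. Basal radial glia have lost the apical attachment and divide in the outer germinal layer, which is enlarged in primates; they share most transcription factors with their apical relatives and differ in matrix, growth factor and cell shape genes. Both kinds give rise to intermediate progenitors and, through them or directly, to neurons.

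The 3 genes chosen as markers of these cells, HOPX, SOX2 and PAX6, were open in both kinds of radial glia and lower in neurons. Accessibility of a gene is given here as CPM, counts scaled to a common library size, summed over its locus, that is over the regions whose closest gene it is within 50 kb. Locus CPM are scaled to the counts in all loci and region CPM to the counts in all regions, so the scales differ. A locus stands for nearness and not for control of the gene, and CPM of loci of unlike size are not compared. In each pair of values the first is library 1 and the second is library 2. HOPX, an atypical homeodomain protein used as a marker of basal radial glia, stood at 238 and 209 CPM in aRG and 214 and 223 CPM in bRG, against 144 and 140.5 CPM in bIP and 63.6 and 52.1 CPM in N. The aRG and bRG values overlapped, and HOPX did not set bRG apart from aRG. SOX2, a transcription factor of neural stem cells, stood at 278 and 239 CPM in aRG and 256 and 247 CPM in bRG, and at 56.3 and 47.6 CPM in N. PAX6, a transcription factor of cortical progenitors, stood at 133 and 110.2 CPM in aRG and 133 and 126 CPM in bRG, and at 53.5 and 49.1 CPM in N. The log2 bRG/aRG ratio was -0.16 within number 1 and 0.092 within number 2 for HOPX, -0.12 and 0.042 for SOX2, and -0.0045 and 0.19 for PAX6. Each of the 3 loci thus had a lower ratio within number 1 than within number 2, and none was above 0 in both.

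Among the other radial glia genes the populations were as close. HES1, a repressor downstream of Notch, stood at 184 and 178 CPM in aRG and 182 and 172 CPM in bRG, and FABP7, a fatty acid binding protein of radial glia, at 187 and 182 CPM in aRG and 180.2 and 188 CPM in bRG. SLC1A3, a glutamate transporter of glia, stood at 133 and 161 CPM in aRG and 133 and 171 CPM in bRG. GLI3, a transcription factor of hedgehog signalling, stood at 528 and 531 CPM in aRG and 506 and 563 CPM in bRG. In these 4 genes the aRG and bRG values overlapped. Of the genes reported as enriched in basal radial glia, TNC, the matrix protein tenascin C, stood at 72.4 and 74.7 CPM in aRG and 82.8 and 87.5 CPM in bRG, with ratios of 0.19 and 0.23. Both bRG libraries were above both aRG libraries, and edgeR's quasi-likelihood test gave a log2 difference of 0.21 ± 0.086 (SE, 2 libraries against 2) with an adjusted p of 1. PTPRZ1, a receptor phosphatase, stood at 243 and 213 CPM in aRG and 215 and 233 CPM in bRG, and FAM107A, an actin-associated stress protein, at 94.3 and 81.1 CPM in aRG and 97.5 and 91.5 CPM in bRG, with ratios of 0.047 and 0.17. PTPRZ1 overlapped between the populations, and so did FAM107A. LIFR, the receptor of the cytokine LIF, had 1 region and low counts, 1.06 and 2.29 CPM in aRG and 2.74 and 3.61 CPM in bRG, and was most open in neurons at 16.6 and 27.8 CPM.

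**Figure D1:**
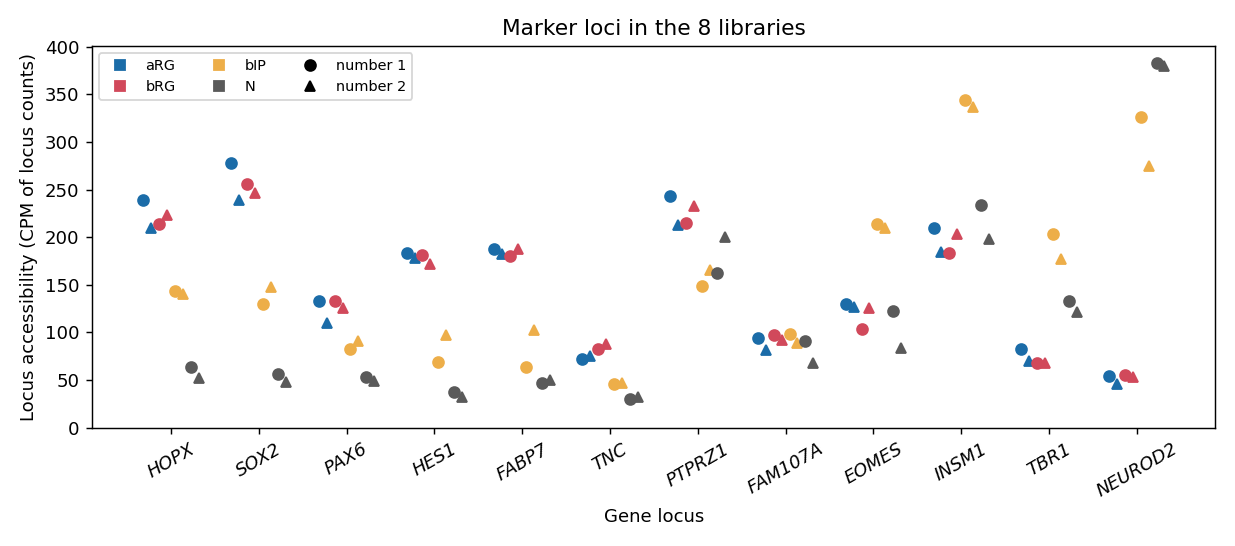
Accessibility of 12 marker loci in each of the 8 libraries, in CPM of locus counts (vertical axis), with colour for the population and shape for the number. At HOPX, SOX2 and PAX6 the aRG and bRG points lie together and above both neuron points, while the NEUROD2 points of neurons lie at 383 and 379 CPM.

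Intermediate progenitor and neuron genes were compared in the same libraries, because a sorted fraction can hold other cells. In bulk libraries, fewer cells with an open region and less opening per cell cannot be told apart. EOMES, the transcription factor that marks intermediate progenitors, stood at 129.8 and 127 CPM in aRG and 104 and 126 CPM in bRG, and INSM1, a zinc finger factor of delaminating progenitors, at 209.8 and 184 CPM in aRG and 183 and 203 CPM in bRG. NEUROD4, a proneural factor, stood at 99.6 and 97.9 CPM in aRG and 81.04 and 109.8 CPM in bRG. These 3 loci were lower in bRG than in aRG within number 1, with ratios of -0.32, -0.19 and -0.30, and were near or above 0 within number 2, at -0.012, 0.14 and 0.17. NEUROG2, another proneural factor, was above 0 in both numbers, with ratios of 0.21 and 0.090. It stood at 11.2 and 21.7 CPM in aRG and 12.9 and 23.1 CPM in bRG, and lower in bIP at 6.56 and 9.19 CPM. Among neuron genes, TBR1, a factor of early deep-layer neurons, stood at 82.3 and 70.4 CPM in aRG and 68.1 and 67.95 CPM in bRG, and BCL11B, on which the neurons are defined, at 155 and 138 CPM in aRG and 153 and 136 CPM in bRG. NEUROD2, a factor of excitatory neurons, stood at 54.3 and 45.8 CPM in aRG and 55.7 and 52.9 CPM in bRG, and MYT1L, a factor that keeps neuronal identity, at 21.7 and 27.96 CPM in aRG and 26.2 and 31.04 CPM in bRG. MYT1L had ratios of 0.27 and 0.15, TBR1 of -0.27 and -0.052 and BCL11B of -0.02 and -0.029. NEUROD2 had ratios of 0.038 and 0.21, and NEUROD6, a related factor, of -0.063 and 0.21. In N, NEUROD2 stood at 383 and 379 CPM and MYT1L at 148 and 149 CPM, far above aRG. BCL11B was lower in N than in aRG, at 133 and 115 CPM. TBR1 was highest in bIP, at 203 and 177 CPM. The neuron markers thus did not share a direction, and not all of them were most open in N.

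Across the genome, most regions with enough counts were within 1.5-fold between basal and apical radial glia in both numbers. In the fit with population as its only term, no single region or gene locus differed beyond the spread between libraries. That spread includes the differences between numbers, which correlated at 0.59 between aRG and bRG over regions. A lack of calls with 2 libraries a population does not show that the populations are alike. The edgeR fit of all 8 libraries tested 198227 regions and called 0, or 0% of them, at an adjusted p under 0.05, with 5232 under an unadjusted 0.05; DESeq2 also called 0, with 2331. Of 14070 gene loci edgeR called 0, or 0%, with 126 under an unadjusted 0.05, and DESeq2 called 0, with 73. A fit of the 4 radial glia libraries alone with the number as a term called 4130 of 171573 regions, or 2.41%, 1350 higher and 2780 lower in bRG, and 282 of 13911 loci, or 2.03%, but had 1 residual degree of freedom. The results below therefore describe ratios within each number and use no call. The 4 libraries held 27883664 and 24994712 counts for aRG and 34845193 and 28970824 for bRG.

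Ratios were read in the 120598 regions whose counts summed to at least 100 over the 4 libraries. The log2 bRG/aRG ratio had a median of -0.044 within number 1 and -0.061 within number 2, and an SD over regions of 0.33 and 0.32. Counting error alone gives an SD of 0.24 and 0.26, so that much of the spread was that of counting. In 86.6% of the regions bRG and aRG were within 1.5-fold of each other in both numbers. At least 1.5-fold higher in bRG in both numbers were 829 regions, or 0.687%, and at least 1.5-fold lower in both were 543, or 0.450%. The numbers disagreed at that fold in 106 regions that were higher in number 1 and lower in number 2, and in 152 with the reverse. Within number 1 alone 5720 regions were higher and 3604 lower, and within number 2 alone 4121 were higher and 4381 lower. Over all regions the ratios of both numbers had a Pearson correlation of 0.26 (n = 120598 regions, which share libraries, depth and scaling). With library totals unscaled, 1472 regions were higher in both and 259 lower.

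**Figure D2:**
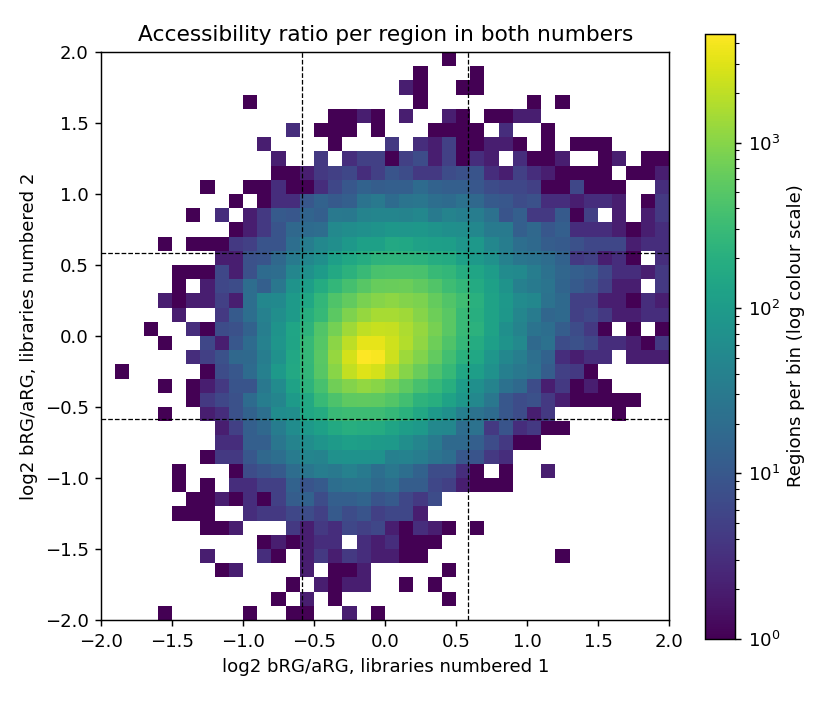
Log2 bRG/aRG ratio within number 1 (horizontal) against that within number 2 (vertical) for regions with a summed count of at least 100; colour gives the number of regions per bin on a log scale and dashed lines mark 1.5-fold. Most regions lie near 0 on both axes, and the upper right corner holds 829 regions and the lower left 543.

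More regions differed by number than by population. Libraries numbered 2 were at least 1.5-fold above those numbered 1 in both aRG and bRG at 3457 regions and at least 1.5-fold below at 5023, and 280 regions moved in opposite directions. The labels do not say what the numbers stand for.

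Regions chosen in one number were then read in the other, whose ratio took no part in the choice. Its libraries did enter the minimum count of 100 over the 4 libraries, so the reading is not fully apart from the choice. The 5720 regions at least 1.5-fold higher in bRG within number 1 had a median log2 ratio of 0.19 within number 2, and 69.7% of them were above 0, against 41.3% of all regions. The 4121 regions higher within number 2 had a median of 0.18 within number 1, and 66.1% were above 0, against 43.4% of all. Ratios in the other number were thus well below those that chose the regions, whose medians were 0.75 and 0.71. The 3604 regions lower within number 1 had a median of -0.14 within number 2, with 62.5% below 0 against 58.7% of all. The 4381 lower within number 2 had a median of -0.19 within number 1, with 70.1% below 0 against 56.6%.

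Most of the 829 regions that were higher in bRG in both numbers were regions open in neurons. Peaks of the N list overlapped 67.6% of them, against 46.0% of all covered regions, and peaks of the bIP list 52.2%, against 56.4%. The N and bIP libraries took no part in the choice. The bRG list itself overlapped 31.6%, against 68.4% of all, and the aRG list 3.86%, against 65.9%. The aRG and bRG libraries did make the choice, and a low aRG level favours a low share of aRG peaks. The 829 were also weakly covered, with a median summed count of 138 against 353 for all covered regions. Shares given here were not compared at like counts. Regions listed at 0 bp from their closest gene are called gene starts here, although the table does not state the point from which distances run; they made up 1.97% of the 829, against 12.8% of all. In 537 regions, or 64.8%, the N library was highest in both numbers; there the median level was 0.704 and 0.800 CPM in aRG and 1.502 and 1.458 CPM in bRG, against 5.24 and 3.19 CPM in bIP and 16.01 and 16.68 CPM in N. In these regions bRG therefore stood above aRG at a level far below that of neurons. The share of all covered regions with N highest in both numbers was not computed. Over all covered regions the median level in N was 2.38 and 2.23 CPM.

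The 8 regions with the largest ratio in the number where it was smaller were all of this kind. They are given in panTro6 coordinates counted from 1, with the closest gene named in the deposited table and a distance whose build the sources used here do not state. First came chr2A:57906119-57907246, near the pseudogene ACTG1P22, with 0.508 and 0.421 CPM in aRG and 1.68 and 1.19 CPM in bRG, 6.15 and 2.96 CPM in bIP and 21.9 and 16.4 CPM in N. Its ratios of 1.59 and 1.35 correspond to 3.02-fold and 2.55-fold. The region chr2B:117856993-117858804, 12.04 kb from ARMC9, a gene of primary cilia, had 0.313 and 0.547 CPM in aRG and 1.296 and 1.42 CPM in bRG and 16.01 and 22.5 CPM in N. At chr4:82531363-82532817, near the non-coding RN7SKP48, the values were 0.547 and 0.632 CPM in aRG and 1.83 and 1.63 CPM in bRG, and 21.1 and 29.2 CPM in N. Both bRG libraries exceeded both aRG libraries in each. The region chr11:111198582-111199680, near AP000462.2, had 0.430 and 0.505 CPM in aRG and 1.12 and 1.797 CPM in bRG, and chr7:20610363-20612020, near EEF1A1P27, had 0.508 and 0.716 CPM in aRG and 1.77 and 1.797 CPM in bRG. The other 3 regions, chr6:16175360-16176238, chr13:4107160-4108591 and chr3:95503310-95504343, had smaller ratios of 1.34, 1.31 and 1.27. All 8 overlapped an N peak, 5 also a bIP peak, and none an aRG or bRG peak. The closest genes of these 8 were mostly non-coding or pseudogenes, so that few coding genes can be named.

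**Figure D3:**
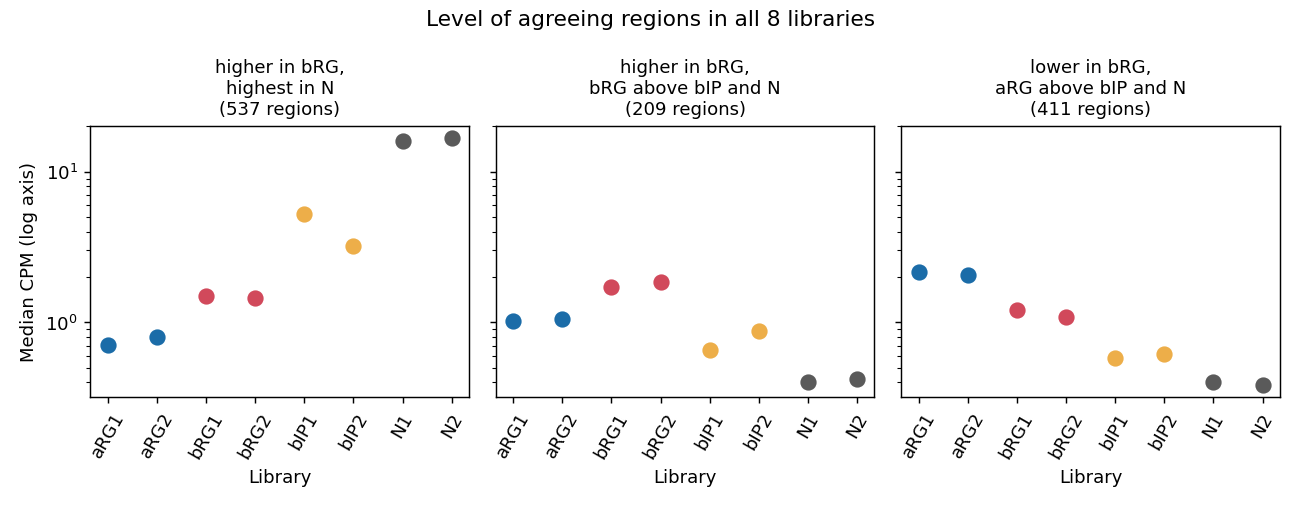
Median CPM (log axis) in each of the 8 libraries for 3 sets of regions that agreed in both numbers, namely 537 higher in bRG with N highest, 209 higher in bRG with bRG above bIP and N, and 411 lower in bRG with aRG above bIP and N. In the first set bRG lies between aRG and bIP, and in the other 2 the level falls off towards the neurons.

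The same pattern was read without using the bRG/aRG ratio to choose regions. Regions where N exceeded aRG at least 16-fold in one number were read for bRG/aRG in the other. The 1571 chosen within number 1 had a median log2 ratio of 0.32 within number 2, and 79.9% were above 0. The 1105 chosen within number 2 had a median of 0.79 within number 1, and 96.5% were above 0. In number 1 the median level of these regions went from 0.782 CPM (aRG) and 1.38 CPM (bRG) to 6.74 CPM (bIP) and 18.9 CPM (N). In number 2 it went from 1.05 CPM (aRG) and 1.36 CPM (bRG) to 4.92 CPM (bIP) and 19.6 CPM (N). These medians come from unlike sets of regions, so levels are not compared between the numbers. With smaller minimum folds the ratio was smaller, at 0.49 and 0.22 for 8-fold and 0.28 and 0.14 for 4-fold, read in number 1 and number 2. Regions where N was at least 16-fold below aRG had medians of -0.12 read in number 1 and -0.098 read in number 2.

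The minimum count over the radial glia libraries favours regions where bRG is high when aRG is low, so the sums were also taken with no such minimum, over regions with at least 100 counts in the neuron library that chose them. The 6900 regions chosen within number 1 summed to 4253 CPM in aRG 2, 5486 in bRG 2 and 80293 in N 2, a log2 ratio of 0.37. The 6689 chosen within number 2 summed to 2813 CPM in aRG 1, 4852 in bRG 1 and 61541 in N 1, a log2 ratio of 0.79. The surplus of bRG over aRG was 1.54% of the N sum in number 2 and 3.31% in number 1. At minimum folds of 8 and 4 it was 1.52% and 1.45% in number 2, and 2.92% and 2.60% in number 1. Sets of a higher minimum fold lie within those of a lower one, so these shares are not independent. The share of the neuron level hardly changed with the fold in number 2 and rose with it in number 1.

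For regions open in bIP, the set read in number 2 stood further from all regions than the set read in number 1. Where bIP exceeded aRG at least 8-fold, 2685 regions chosen within number 1 had a median ratio of 0.20 within number 2, with 70.6% above 0, against a median of -0.061 and 41.3% for all regions. The 1493 chosen within number 2 had a median of 0.019 within number 1, with 51.4% above 0, against -0.044 and 43.4% for all. These are unlike sets of regions, so the numbers themselves are not compared. The set read in number 2 had medians of 9.53 CPM in bIP and 13.9 CPM in N. The set read in number 1 had 14.2 CPM in bIP and 11.6 CPM in N. At 4-fold the median read in number 1 was 0.040, with 53.2% above 0. Other sorted cells in the bRG libraries would be read the same way, and their part was not tested. Of the intermediate progenitor and neuron loci named above, NEUROD2, MYT1L and NEUROG2 were above 0 in both numbers, while TBR1, BCL11B and EOMES were below 0 in both.

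**Figure D4:**
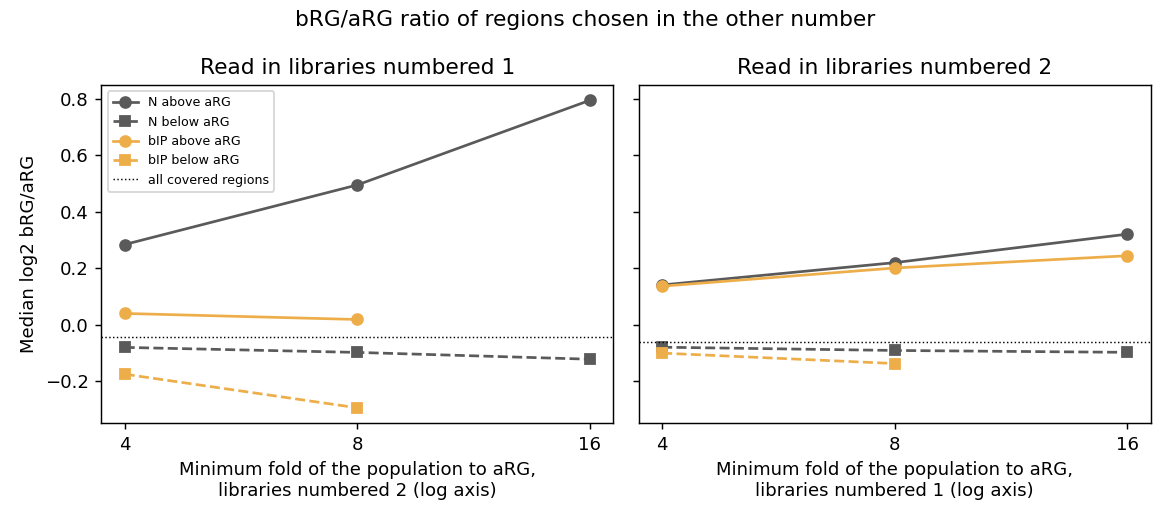
Median log2 bRG/aRG ratio (vertical) of regions where N or bIP differed from aRG by at least the fold on the horizontal log axis, chosen in one number and read in the other; sets of under 100 regions are not drawn. The N-above-aRG line rises with the fold in both panels, to 0.79 read in number 1 and 0.32 in number 2, and the bIP-above-aRG line stays at 0.040 and 0.019 read in number 1.

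A second group of 209 regions, 25.2% of those higher in bRG, had bRG above bIP and N in both numbers. This share is favoured by a choice made on the bRG level, and it was not computed for all covered regions. Their median was 1.02 and 1.05 CPM in aRG and 1.71 and 1.86 CPM in bRG, while bIP stood at 0.655 and 0.884 CPM and N at 0.402 and 0.424 CPM. Peaks of the bRG list overlapped 63.2% of them, against 68.4% of all covered regions, and N peaks 3.35%, against 46.0%. The region chr2A:43605568-43606012, 14.2 kb from RN7SL531P, had 0.274 and 0.674 CPM in aRG and 1.44 and 1.56 CPM in bRG, with ratios of 2.13 and 1.13. At chr6:147511771-147512256, 26.3 kb from PPP1R14C, which encodes an inhibitor of protein phosphatase 1, the values were 0.704 and 0.800 CPM in aRG and 1.47 and 2.07 CPM in bRG. At chr18:39118021-39118938, 21.2 kb from the urea transporter gene SLC14A2, they were 0.352 and 0.926 CPM in aRG and 1.09 and 1.86 CPM in bRG. In all 3 the bRG libraries were above the aRG libraries, at low levels. A further 34 regions, 4.10%, had bIP highest in both numbers.

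Among the basal radial glia markers, TNC held a region of this kind. Of its 8 regions, chr9:87369142-87370414, 23.8 kb from the gene, had 4.26 and 6.36 CPM in aRG and 6.89 and 10.6 CPM in bRG, 1.02 and 2.999 CPM in bIP and 0.526 and 0.385 CPM in N. Its ratios were 0.68 and 0.73, it lay in the aRG and bRG peak lists, and edgeR's adjusted p over all regions was 1. The region at the gene start, chr9:87393679-87395120, had 25.1 and 23.96 CPM in aRG and 24.4 and 21.8 CPM in bRG and ratios of -0.041 and -0.14. The higher TNC locus in bRG thus came from distal regions and not from the gene start. The locus of PDCD1LG2, an immune checkpoint ligand, behaved alike and was chosen after its values were seen. Its 3 regions together stood at 30.8 and 34.3 CPM in aRG and 44.4 and 47.8 CPM in bRG, against 8.03 and 18.5 CPM in bIP and 3.04 and 4.98 in N, and the largest, chr9:5495048-5496859, had ratios of 0.49 and 0.49.

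The 543 regions lower in bRG in both numbers were mostly more open in aRG than in its progeny. In 411, or 75.7%, aRG, on whose level they were chosen, was above bIP and N in both numbers, with medians of 2.15 and 2.06 CPM in aRG and 1.21 and 1.08 CPM in bRG, while bIP stood at 0.583 and 0.615 CPM and N at 0.402 and 0.385 CPM. The share of 75.7% is favoured by that choice, and it was not computed for all covered regions. N peaks overlapped 10.1% of the 543 and bIP peaks 17.3%, against 46.0% and 56.4% of all covered regions. The region with the lowest ratios, chr1:201778727-201779324, near AL359732.1, had 1.72 and 1.39 CPM in aRG and 0.530 and 0.169 CPM in bRG, with ratios of -1.57 and -2.60. At chr5:76529434-76530198, 3.07 kb from AC008522.1, the values were 3.28 and 1.81 CPM in aRG and 1.36 and 0.576 CPM in bRG. At chr9:55705486-55706507, 5.62 kb from TRPM3, which encodes a cation channel, they were 1.45 and 2.19 CPM in aRG and 0.589 and 0.712 CPM in bRG. Both bRG libraries were below both aRG libraries in each of these 3. The region chr21:31452685-31453533, 18.5 kb from FAM207A, had 2.42 and 2.74 CPM in aRG and 1.002 and 1.12 CPM in bRG, and chr21:16058357-16059099, near BACH1-AS1, had 1.99 and 1.89 CPM in aRG and 0.825 and 0.678 CPM in bRG. Of the other 3 of the 8 lowest, the regions near PCDH9-AS1 and AC010266.2 had ratios of -1.34 and -1.21 and -1.44 and -1.23. The region near AL445526.1, with ratios of -1.22 and -1.16, was the only 1 of the 8 in an N peak. Agreeing regions of both directions were weakly covered, with median summed counts of 138 for the higher and 163 for the lower set, against 353 for all covered regions, and with a minimum of 400 counts 17 were higher and 56 lower.

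The direction of the ratio also followed where a region lay and how open it was. Among the 15086 covered regions at gene starts, that is at a listed distance of 0 bp, the median log2 ratio was -0.11 within number 1 and -0.16 within number 2, and 21.7% and 13.9% were above 0. The share of counts in gene starts was 37.3% and 38.3% in aRG and 36.4% and 36.6% in bRG, both bRG values below both aRG values (exact permutation test, two-sided p = 0.333, the smallest that 2 against 2 allows). On average over both numbers the gene starts lay -0.10 ± 0.030 (SD, n = 2 numbers) from the other regions, and -0.014 ± 0.028 after loess scaling. Regions 2 to 50 kb away had medians of -0.014 and -0.032. Their share of counts was 40.2% and 39.6% in aRG and 41.2% and 40.9% in bRG. Here both bRG values were above both aRG values (exact permutation test, two-sided p = 0.333). Among the 12060 most open regions the median was -0.12 and -0.16, and in classes 4 to 6 of 10 by level, counted from the least open, it was between -0.0067 and 0.022.

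By the peak lists of the other populations, only the regions with an N peak and no bIP peak had medians above 0, at 0.10 and 0.031 over 7485 covered regions. They held 2.27% and 2.39% of the counts in aRG and 2.71% and 2.73% in bRG, which do not overlap (exact permutation test, two-sided p = 0.333). Regions with a bIP peak and no N peak had medians of -0.083 and -0.061, regions with both -0.058 and -0.083, and regions with neither -0.022 and -0.038. Of the N-only regions 2.04% were higher in bRG in both numbers, against 0.539% of the regions with neither peak. Taken as a difference from the latter, the N-only median was 0.095 ± 0.037 (SD, n = 2 numbers), and 0.016 ± 0.035 with a minimum of 400 counts.

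Within the marker loci, region by region, the gene starts were slightly lower in bRG and the distal regions varied. The start of HOPX, chr4:72206572-72208106, had 25.6 and 22.4 CPM in aRG and 20.9 and 19.8 CPM in bRG, with ratios of -0.29 and -0.18. The region chr4:72198299-72199866, 7230 bp from it, was the most open of the locus, with 71.9 and 64.8 CPM in aRG and 60.6 and 65.1 CPM in bRG and ratios of -0.25 and 0.0061. The start of SOX2, chr3:179797765-179799818, had 74.2 and 68.1 CPM in aRG and 64.95 and 61.7 CPM in bRG, with ratios of -0.19 and -0.14. A region 3156 bp from it, chr3:179795561-179796420, went along the lineage from 37.999 and 28.1 CPM in aRG and 32.3 and 27.9 CPM in bRG to 7.5005 and 10.3 CPM in bIP and 1.21 and 1.04 CPM in N. The start of PAX6, chr11:31515463-31516023, had 10.3 and 8.97 CPM in aRG and 10.1 and 8.92 CPM in bRG, with ratios of -0.03 and -0.0087. The most open PAX6 region, chr11:31521418-31523087, 5784 bp away, had 30.2 and 23.5 CPM in aRG and 28.6 and 24.4 CPM in bRG. None of the 17 regions of these 3 loci reached 1.5-fold in the same direction in both numbers.

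Gene loci gave a similar picture at a smaller fold. Of 14187 loci, 12917 had a summed count of at least 200 over the 4 libraries. At least 1.2-fold higher in bRG in both numbers were 234, or 1.81%, and at least 1.2-fold lower 38, or 0.294%, with 22 and 35 in opposite directions. After loess scaling within each number, which removes a trend with level, 107 were higher and 78 lower. In 111 of the 234, or 47.4%, the N library was highest in both numbers, against 27.4% of all covered loci. In 64, or 27.4%, the bRG library was, against 8.51% of all, and in 25 of the 38 lower loci, or 65.8%, the aRG library was, against 15.2%; these last shares are favoured by a choice made on the same libraries. Agreeing loci were of low counts, with medians of 7.96 and 8.35 CPM in aRG for the higher loci against 65.2 and 65.5 CPM for all covered loci.

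Of the 8 highest loci 3 were most open in neurons in both numbers, 4 in bRG, on whose level they were chosen, and 1 in neither. ADA2, an adenosine deaminase, stood at 7.13 and 5.92 CPM in aRG and 12.6 and 9.56 CPM in bRG, and at 87.9 and 73.4 CPM in N, with ratios of 0.80 and 0.68. DPH6, an enzyme of diphthamide synthesis, stood at 4.93 and 6.78 CPM in aRG and 8.08 and 10.7 CPM in bRG, and at 92.4 and 108 CPM in N. MYOT, a protein of the muscle Z-disc, stood at 3.08 and 4.199 CPM in aRG and 5.34 and 6.46 CPM in bRG, and at 41.5 and 56.9 CPM in N. In each the bRG libraries were above the aRG libraries and far below the neurons. The ADA2 region chr22:3473220-3474294, for example, had 0.704 and 0.379 CPM in aRG and 1.502 and 1.22 CPM in bRG and 20.2 and 17.4 CPM in N.

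CCDC150, a coiled-coil protein gene, stood at 5.896 and 6.39 CPM in aRG and 9.77 and 9.82 CPM in bRG, with ratios of 0.71 and 0.60 and 0.719 and 0.995 CPM in N. TIGIT, an immune receptor gene, stood at 3.96 and 4.77 CPM in aRG and 6.26 and 8.64 CPM in bRG, and GIMAP5, a GTPase gene of lymphocytes, at 4.31 and 2.67 CPM in aRG and 6.75 and 4.61 CPM in bRG. All 3 were lowest in neurons and rest on 1 region each. COL18A1, a basement membrane collagen, stood at 4.4000 and 1.91 CPM in aRG and 8.43 and 3.02 CPM in bRG; its number 1 libraries were above its number 2 libraries in all 4 populations, so that aRG 1 exceeded bRG 2. In bIP it stood at 6.07 and 1.48 CPM and in N at 4.56 and 1.79 CPM. PHKG1, a subunit of phosphorylase kinase, stood at 4.22 and 4.104 CPM in aRG and 6.61 and 6.38 CPM in bRG, 7.93 and 6.03 CPM in bIP and 7.67 and 5.47 CPM in N, with ratios of 0.62 and 0.61; bIP was highest in number 1 and bRG in number 2.

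Among the 8 lowest loci, HPSE2, a relative of heparanase, stood at 21.4 and 18.6 CPM in aRG and 13.7 and 13.6 CPM in bRG, with ratios of -0.64 and -0.45. PHACTR4, a regulator of phosphatase 1 and actin, stood at 5.54 and 5.54 CPM in aRG and 4.08 and 2.601 CPM in bRG, with ratios of -0.43 and -1.04. RXFP1, the relaxin receptor, stood at 14.4 and 11.9 CPM in aRG and 10.8 and 9.14 CPM in bRG, and at 0.879 and 1.59 CPM in N. The bRG libraries were below the aRG libraries in each of these 3. KRTAP27-1, a keratin-associated protein gene, had ratios of -0.83 and -0.47 but differed more by number, at 12.5 and 35.98 CPM in aRG and 6.96 and 26.01 CPM in bRG. The other 4, THOC6 of the mRNA export complex, the lysosomal transporter gene MFSD12, SFTA3 and the heart gene LRRC10, had ratios between -0.37 and -0.55. The edgeR adjusted p was 1 for each of the 16 loci, and the largest log2 differences were 0.87 ± 0.73 for COL18A1 and -0.72 ± 0.28 for PHACTR4.

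Lists of pathway and cell type genes were read against all covered loci, of which 27.2% were above 0 in both numbers, 31.5% below 0 in both and 41.3% mixed. The edgeR test called 0 members of any of the 18 lists at an adjusted p under 0.05. The 329 distinct genes with a locus include 20 covered basal radial glia genes, of which 4 were above 0 in both numbers, 4 below and 12 mixed, with medians of -0.054 and 0.073. ACSBG1, an acyl-CoA synthetase, stood at 22.7 and 26.2 CPM in aRG and 28.2 and 32.97 CPM in bRG, with ratios of 0.31 and 0.33, the largest of the list. PLCB4, a phospholipase C, stood at 12.1 and 19.4 CPM in aRG and 11.2 and 15.7 CPM in bRG, with ratios of -0.10 and -0.30. Of 16 apical radial glia genes 3 were above 0 in both numbers and 8 below, with medians of -0.049 and -0.032. VIM, the intermediate filament vimentin, stood at 290.3 and 264 CPM in aRG and 259.8 and 247 CPM in bRG, and CDH2, N-cadherin, at 199 and 221 CPM in aRG and 189 and 209.8 CPM in bRG. Of 19 genes shared by both kinds 3 were above and 6 below.

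Genes of attachment, shape and matrix showed no common direction. Of 22 adherens junction and apical polarity genes 4 were above 0 in both numbers and 6 below. CTNNA1, the cadherin linker alpha-catenin, stood at 8.096 and 7.35 CPM in aRG and 10.6 and 11.1 CPM in bRG, with ratios of 0.38 and 0.58, and CDH1, E-cadherin, at 14.7 and 10.9 CPM in aRG and 13.1 and 9.48 CPM in bRG. The CTNNA1 counts came from 4 distal regions, the one with the largest ratio in number 2 being chr5:116971730-116972665, with 1.21 and 1.09 CPM in aRG and 1.59 and 2.0000 CPM in bRG and 3.78 and 5.97 CPM in N, and not from its gene start. Of 24 morphoregulatory genes, which shape cell protrusions, 5 were above 0 in both numbers and 8 below, with medians of -0.030 and 0.015. CAMK2A, a calcium-dependent kinase, stood at 152 and 156 CPM in aRG and 168 and 165 CPM in bRG, LIMCH1, an activator of myosin, at 193 and 213 CPM in aRG and 205 and 230.4 CPM in bRG, and BAIAP2, which bends membranes, at 105 and 81.1 CPM in aRG and 112 and 86.8 CPM in bRG. All 3 were above 0 in both numbers, and only CAMK2A had both bRG libraries above both aRG libraries. Of 17 delamination genes 6 were above and 5 below. ZEB1, a repressor of epithelial genes, stood at 3.696 and 4.104 CPM in aRG and 5.41 and 5.29 CPM in bRG, and TWIST1, a factor of mesenchymal transition, at 56.7 and 46.5 CPM in aRG and 38.7 and 42.2 CPM in bRG.

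Matrix genes were split. Of 23 matrix and integrin genes 8 were above 0 in both numbers and 9 below. BCAN, the proteoglycan brevican, stood at 55.3 and 53.9 CPM in aRG and 64.6 and 68.96 CPM in bRG, with ratios of 0.22 and 0.35, and LAMB1, a laminin chain, at 40.3 and 45.4 CPM in aRG and 34.3 and 35.1 CPM in bRG, with ratios of -0.23 and -0.37. The BCAN locus is a single region at the gene start, chr1:131443973-131445609, and on the scale of region counts the same counts gave ratios of 0.14 and 0.23. Both BCAN and TNC, which are matrix proteins of radial glia and astrocytes, thus had bRG above aRG in every library, and LAMB1 had it below. For BCAN the edgeR log2 difference was 0.29 ± 0.13 on the locus scale and 0.19 ± 0.15 on the region scale, each with an adjusted p of 1.

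Growth signal genes were near 0. Of 20 LIF, STAT and growth factor genes 5 were above 0 in both numbers and 4 below, with medians of -0.013 and 0.0043. LIF, a cytokine that acts through STAT3, stood at 56.6 and 58.98 CPM in aRG and 70.1 and 62.8 CPM in bRG, and ETV4, a factor induced by FGF signalling, at 257 and 222 CPM in aRG and 237 and 201 CPM in bRG. Of 12 YAP, TAZ and TEAD genes 2 were above and 4 below. TEAD3, a DNA-binding partner of YAP, stood at 116 and 106 CPM in aRG and 128 and 113 CPM in bRG, and CCN1, a YAP target, at 97.8 and 101 CPM in aRG and 93.5 and 94.6 CPM in bRG. Of 19 Notch genes 5 were above and 8 below. HEYL, a Notch target, stood at 11.000 and 10.6 CPM in aRG and 14.3 and 12.2 CPM in bRG, and MAML3, a Notch coactivator, at 342 and 305 CPM in aRG and 306 and 288 CPM in bRG.

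Cell cycle loci were more often lower than higher in bRG. Of 23, 3 were above 0 in both numbers, 11, or 47.8%, below and 9 mixed, against 31.5% of all loci below, with medians of -0.079 and -0.023. PLK1, a mitotic kinase, stood at 45.1 and 50.4 CPM in aRG and 35.8 and 40.02 CPM in bRG, with ratios of -0.33 and -0.33. The PLK1 locus is a single region at the gene start, chr16:25137531-25139183. On the scale of region counts the same counts gave 20.1 and 22.2 CPM in aRG and 15.02 and 16.2 CPM in bRG. There the ratios were -0.42 and -0.46, and N stood at 10.9 and 10.8 CPM. CCNB1, a mitotic cyclin, stood at 69.96 and 76.6 CPM in aRG and 58.4 and 69.96 CPM in bRG. MCM2, a subunit of the replicative helicase, went the other way at 12.8 and 17.5 CPM in aRG and 14.8 and 24.5 CPM in bRG. Ribosomal protein loci were lower in 11 of 21, or 52.4%, with medians of -0.0091 and -0.053. A lower ratio at gene starts, described above, moved with both lists, and its part in the counts was not tested.

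Lists of other cells differed in direction. Of 15 oligodendrocyte and astrocyte genes 7, or 46.7%, were above 0 in both numbers and 2 below, with medians of 0.024 and 0.091. OLIG1, a factor of oligodendrocyte precursors, stood at 5.72 and 4.58 CPM in aRG and 7.03 and 7.47 CPM in bRG, and SOX10, a factor of the same cells, at 17.8 and 13.1 CPM in aRG and 21.4 and 16.3 CPM in bRG, with ratios of 0.27 and 0.31; OLIG1 had ratios of 0.29 and 0.68. Both were thus at least 1.2-fold higher in bRG within each number. GJA1, the gap junction protein connexin 43, went the other way at 61.2 and 49.2 CPM in aRG and 48.9 and 40.7 CPM in bRG. Of 17 choroid plexus and hem genes 2 were above and 9, or 52.9%, below. RSPO2 and MSX1, a Wnt potentiator and a homeobox factor of the dorsal midline, stood at 38.7 and 47.5 CPM in aRG and 33.2 and 38.3 CPM in bRG, and at 83.8 and 84.9 CPM in aRG and 78.9 and 71.7 CPM in bRG. RSPO3 went the other way at 6.69 and 6.59 CPM in aRG and 8.36 and 7.05 CPM in bRG. Its ratios were 0.32 and 0.095, and it stood at 61.2 and 72.2 CPM in N. Of 14 mesenchymal and endothelial genes 2 were above and 5 below. KDR, a VEGF receptor, stood at 54.999 and 39.6 CPM in aRG and 46.7 and 31.04 CPM in bRG.

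Of 19 interneuron and ganglionic eminence genes 3 were above 0 in both numbers and 8 below, with medians of -0.17 within number 1 and 0.014 within number 2. ERBB4, a neuregulin receptor, stood at 96.7 and 90.95 CPM in aRG and 83.2 and 78.6 CPM in bRG, with ratios of -0.22 and -0.21, and DLX2, a factor of the ganglionic eminence, at 145 and 125 CPM in aRG and 125 and 114 CPM in bRG. Of 19 intermediate progenitor genes 4 were above, 3 below and 12 mixed, and of 22 neuron genes 5 were above and 7 below. RBFOX3, the neuronal splicing factor known as NeuN, stood at 109.8 and 110.3 CPM in aRG and 128 and 127 CPM in bRG, with ratios of 0.23 and 0.20. Summed over its loci, the neuron list stood at 3598 and 3280 CPM in aRG and 3456 and 3372 CPM in bRG, where the groups overlap. In N the same loci summed to 3702 and 3687 CPM, little above aRG. The sum of this list therefore cannot show whether it moved with the neuron-open regions.

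**Figure D5:**
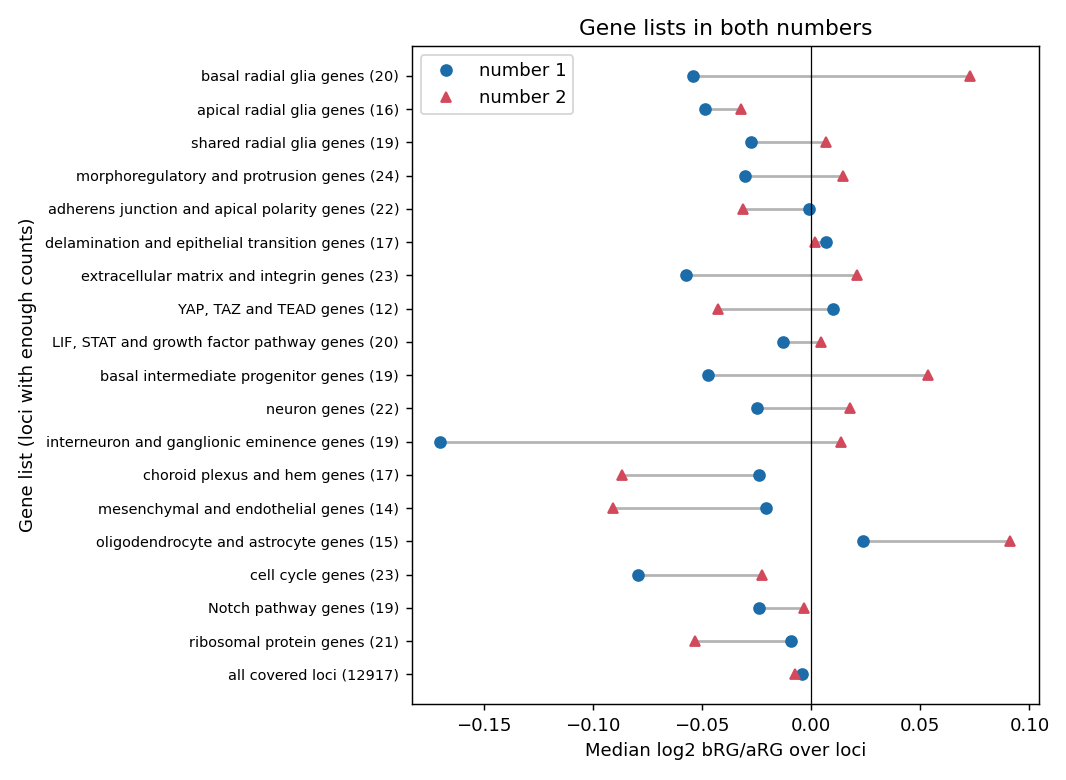
Median log2 bRG/aRG ratio over the loci of each gene list (horizontal) within number 1 (circles) and number 2 (triangles), with the number of covered loci in parentheses and all covered loci in the last row. The cell cycle list lies below 0 in both numbers, at -0.079 and -0.023, the oligodendrocyte and astrocyte list above 0 in both, and the interneuron list at -0.17 in number 1 and 0.014 in number 2.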

How the data were processed

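The authors deposited 1 table of unscaled whole-number counts, regions by 8 libraries, with identifiers and the closest gene of each region, per the file headers. The authors' consensus peak lists, 1 per population, give per the narrowPeak layout a score, a fold enrichment (a ratio) and -log10 q values; these deposited scores, ratios and -log10 values were not used, only the intervals. Per the submitters' processing notes, bcl2fastq 2.20.0, MACS2, hg38 and panTro6 were used, in unstated roles. Neither the aligner nor the build and anchor point of the gene distances are given in the sources used here.

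Totals per library lay between 24913928 and 34845193 counts. Regions and gene loci (counts summed over regions whose closest gene carries a protein-coding symbol in RefSeq, at most 50 kb away) were compared by the quasi-likelihood F-test of edgeR 4.0.16 (TMM, filterByExpr, robust, Benjamini-Hochberg). The model held 8 libraries and a term for population. Its filter removed 13121 regions and 117 loci. DESeq2 1.42.0, limma 3.58.1 (loess) and bedtools 2.31.1 (peak overlap of at least 1 base) were used in R 4.3.3 or beside it. Scripts were tested on simulated data.

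Ratios within a number are log2 bRG/aRG of TMM-scaled CPM with a prior count of 2, which shrinks the ratio of low regions. They were read in regions with 100 and loci with 200 counts over the 4 radial glia libraries, and called agreeing at 1.5-fold and 1.2-fold. Named were the marker loci, the 8 highest and 8 lowest agreeing loci and regions by the smaller of both ratios, the regions of HOPX, SOX2 and PAX6, and at most 3 members per list; regions inside other loci and loci outside this rule were chosen after their values were seen. Members and lists were chosen with earlier results of these data known. Counting intervals are not given, and no sequences were available to print. Alternatives covered scaling, filters, prior count, folds, the number as a term, each library left out, and locus windows.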

Additional observations from a re-analysis of the deposited data

How the results depend on the processing

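With 2 libraries a population, the edgeR count of calls was 0 for regions and for loci in the fit of all libraries, and in the runs with RLE factors, no filter, loess offsets, shorter locus windows and DESeq2, and with each library left out the lowest and highest count was 0. The replicate number as a block over all 8 libraries also gave 0, with 8808 regions and 383 loci under an unadjusted 0.05, and so did the radial glia libraries alone without the block. With those 4 libraries and the replicate block, edgeR called 4130 regions and 282 loci, and 1875 and 247 with loess offsets added after seeing the data; this fit has 1 residual degree of freedom, so its spread rests on the prior. Differences between numbers correlated across 120598 regions at 0.59 between aRG and bRG and at 0.18 to 0.42 between other populations, but the labels do not say that a number marks a shared batch, and no pairing is taken from the data.

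Counts of agreeing regions depended on thresholds. Higher and lower in bRG were 4519 and 4248 regions at a lower minimum fold, 50 and 23 at 2-fold, 4680 and 1726 with a minimum of 25 counts, 17 and 56 with 400, 415 and 304 with a prior count of 8, and 1472 and 259 with raw totals. With no bIP or N peak, a choice made after seeing the data, 243 and 428 remained. For loci, higher and lower were 137 and 14 at a fold slightly above the main one, 0 and 0 at 2-fold, 394 and 59 with a minimum of 50 counts, 70 and 14 with 800, and 107 and 78 with loess scaling. The gap between N-only regions and those with neither peak was 0.016 with 400 counts, and the gap between gene starts and other regions was -0.014 with loess scaling. The neuron-open ratio, averaged over both numbers, was 0.56, and 0.52 to 0.64 under the 3 alternatives added after seeing the data. The cause of these shifts was not tested.

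The fitted log2 difference of 5 named loci turned sign when 1 library was left out. Over the left-out libraries it ran from -0.13 to 0.065 for HOPX (above 0 without aRG replicate 1), from -0.14 to 0.072 for SOX2 (likewise), from -0.040 to 0.23 for PAX6 (below 0 without aRG replicate 2), from -0.070 to 1.598 for COL18A1 (below 0 without bRG replicate 1) and from -1.80 to 0.39 for KRTAP27-1 (above 0 without aRG replicate 2, and at 0.11 without bRG replicate 1). Without a change of sign, values moved by over 1.5 times for PHACTR4 (-1.09 without bRG replicate 1, -0.44 without bRG replicate 2), GIMAP5 (1.09 without aRG replicate 1, 0.40 without aRG replicate 2 and without bRG replicate 1), LRRC10 (-0.19 without aRG replicate 1, -0.30 without bRG replicate 2) and RXFP1 (-0.25 without aRG replicate 1).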

Other observations

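Loci outside the lists that were read after their values were seen included factors of glia and of the dorsal midline. ZBTB20, a transcription factor of hippocampus and astrocytes, stood at 51.7 and 67.1 CPM in aRG and 67.97 and 91.4 CPM in bRG, with ratios of 0.39 and 0.45, and was lower in neurons at 16.2 and 18.02 CPM. ZIC4, a zinc finger factor of the dorsal midline, stood at 104 and 56.5 CPM in aRG and 83.01 and 40.02 CPM in bRG, with ratios of -0.32 and -0.50; its number 1 libraries were above its number 2 libraries in all populations. ZIC1, its relative, stood at 221 and 159 CPM in aRG and 183 and 139 CPM in bRG, and WLS, which carries Wnt ligands to the cell surface, at 294 and 222 CPM in aRG and 256 and 184 CPM in bRG. ID1, an inhibitor of proneural factors, stood at 113 and 109 CPM in aRG and 100.2 and 84.7 CPM in bRG, and TPBG, a membrane glycoprotein that inhibits Wnt signalling, at 84.7 and 77.02 CPM in aRG and 66.8 and 64.1 CPM in bRG. Both bRG libraries were below both aRG libraries for ID1 and TPBG.

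In the fit with the number as a term, 12 of 329 list genes passed the threshold, against 2.03% of all loci. With loess offsets CDK6, DLX2 and ERBB4 had an edgeR adjusted p of 0.094, 0.10 and 0.0501 and no longer passed, and the other 9 did. The log2 difference was 0.21 ± 0.06 (edgeR adjusted p 0.027) for TNC and 0.29 ± 0.068 (edgeR adjusted p 0.0038) for BCAN. RBFOX3 was the other gene higher in bRG, at 0.22 ± 0.053 (edgeR adjusted p 0.0054). Among the 9 lower genes, PLK1 stood at -0.33 ± 0.081 (edgeR adjusted p 0.0067), TWIST1 at -0.35 ± 0.078 (edgeR adjusted p 0.0016) and GJA1 at -0.30 ± 0.074 (edgeR adjusted p 0.008). The 1350 regions higher in bRG in that fit overlapped N peaks in 64.1%, against 43.2% of all tested there, and had a median log2 difference of 0.92. The 2780 lower ones overlapped aRG peaks in 95.5%, against 46.4%, and 31.9% were gene starts, against 9.42%, with a median of -0.31. The aRG level entered that call, and their median level was 20.9 CPM against 1.80 CPM for all tested. With loess offsets the 958 higher ones had a median of 0.62 and overlapped N peaks in 57.6%, and of the 917 lower ones 83.5% overlapped aRG peaks and 5.54% were gene starts, with a median of -0.60. The 11 lowest p-values there belonged to regions with no human identifier, with differences between -0.51 and -0.59. The first of them, chr13:68976924-68978232, held 40683 and 32891 counts in aRG, 35089 and 28543 in bRG, and 41009 and 41014 in N.

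A few loci differed more by number than by population. HSPA1L, a heat shock protein gene, stood at 37.1 and 11.9 CPM in aRG and 50.5 and 15.4 CPM in bRG, 31.7 and 12.5 CPM in bIP and 30.8 and 12.7 CPM in N, higher in number 1 in all 4 populations, with bRG/aRG ratios of 0.44 and 0.36. KIF20A, a mitotic kinesin, stood at 11.000 and 28.4 CPM in aRG and 10.4 and 29.2 CPM in bRG, higher in number 2 in both, with ratios of -0.079 and 0.037. SPATA3, a testis gene, stood at 11.9 and 34.3 CPM in aRG and 20.03 and 49.4 CPM in bRG, with ratios of 0.75 and 0.53.

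Median ratios by chromosome ran in unlike orders in the numbers. Within number 1 they ranged from -0.11 on chromosome 4 to 0.045 on chromosome 22. Within number 2, chromosome 19 was lowest at -0.13, chromosome 22 stood at -0.082 and chromosome 4 at -0.057.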
